A study of Drosophila melanogaster with 8 samples.

Results

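The insulin and TOR growth pathway was followed through InR, chico, Akt1, foxo, ImpL2, Tor, rictor, Tsc1, S6k and Thor in wing discs with and without Myb. These genes were chosen by symbol and make up 10 of the 14300 genes in the deposited count table. All 10 passed the filter on low counts, which 9076 genes passed. The mutant larvae carried MH107, an allele of Myb made by mobilising a P-element with the Delta2-3 transposase. According to the study's methods it also removes the neighbouring AlkB gene and had been crossed into the control background. Mutants die as early pupae. The controls were larvae of the yw67 line. All larvae were males of the third instar, and the tissue of every library was the mesothoracic wing disc, the larval epithelium that forms the adult wing and notum.

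Insulin-like peptides in the larval blood bind the insulin receptor InR, which signals through the adaptor chico and phosphoinositide 3-kinase to the kinase Akt1. Akt1 keeps the transcription factor foxo out of the nucleus, and TOR complex 1, which the Tsc1 and gig (Tsc2) complex restrains, promotes protein synthesis through S6k and through release of the translation brake Thor. In wing discs these genes set the number and size of cells as larvae feed. Messenger RNA levels do not report the phosphorylation by which most of this pathway works.

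Polyadenylated RNA was sequenced from 5 Myb mutant and 3 yw67 control libraries, which held 50562199 to 65322440 counts. The labels conflict on what the libraries were: one text calls all 8 biological replicates, whereas the descriptions make the 3 control libraries technical replicates of a single biological replicate, set mutant library 1 apart and place mutant libraries 2 to 5 together. The p-values below thus cover variation among these libraries, and this variation may be technical. Myb averaged 5.79 ± 1.13 CPM (read counts scaled to a common library size) in Myb mutant discs and 301 ± 4.94 CPM in yw67 discs (SD, n = 5 and 3). All 8 wing disc markers passed the filter, and their summed level was 1722 to 1775 CPM in mutant libraries and 1489.5 to 1778 CPM in control libraries. Markers of other tissues were present in uneven amounts. The 6 fat body markers summed to 470.2 to 5229.9 CPM in mutant libraries and 74.2 to 4565 CPM in control libraries, and the 5 salivary gland genes summed to 0.630 to 186 CPM in mutant and 3.97 to 17.0 CPM in control libraries. All 5 hemocyte (blood cell) markers tested were lower in the mutant, with sums of 5.02 to 17.2 CPM in mutant libraries and 157 to 222 CPM in control libraries. In whole discs, fewer cells of a type and less RNA per cell cannot be told apart.

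Control library 2 stood apart from the others in a way that touched these genes. Over genes at 5 CPM or more, its level against the mean of the other control libraries had a median log2 difference of 0.20 for genes with exons under 1 kb and of -0.57 for those over 8 kb. Among the 10 genes it was below the mean of the other controls in 9, by 1.12 on the log2 scale for InR (11367 exon bases), by 0.64 for S6k, by 0.47 for Akt1 and by 0.44 for Tor. Tsc1 was the exception, at a log2 difference of 0.02. Thor did not follow the order of lengths, since its 755 exon bases put it among the short genes and its log2 difference was -0.70. Values that moved by more than 1.5 times, or whose call changed, without control library 2 are given with and without it. This covers the 10 genes and those other pathway genes named below that were called or close to a call.

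**Figure D1:**
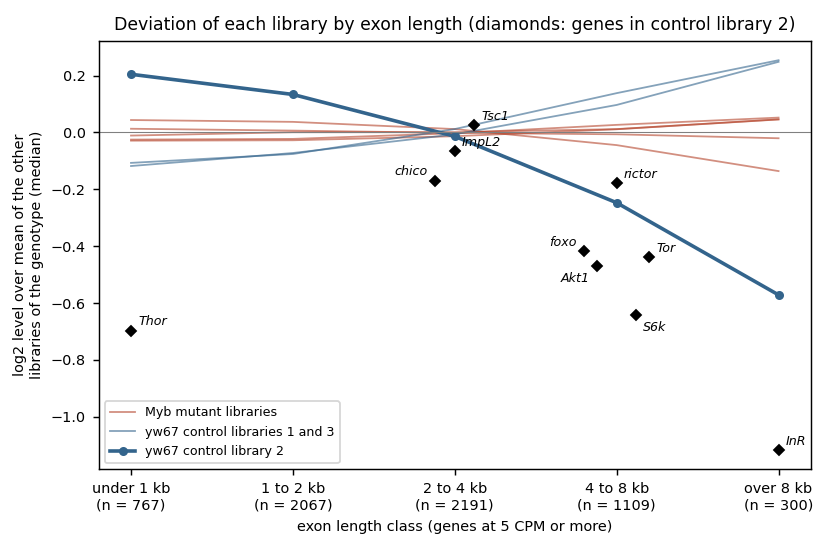
Median log2 level of each library relative to the other libraries of its genotype (vertical axis) in 5 classes of exon length (horizontal axis), with the number of genes in each class. The thick line is control library 2, which runs from 0.20 in the shortest class to -0.57 in the longest, and diamonds show the 10 insulin and TOR genes in that library, offset sideways within a class only to separate them.

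Of the 10 genes, rictor was higher and ImpL2 was lower in Myb mutant discs at an adjusted p under 0.05 (edgeR quasi-likelihood test), and the other 8 did not pass. Across all tested genes 34.4% passed, 16.9% as higher and 17.5% as lower, and of these 10 genes 20.0% did. Rictor and ImpL2 were also the only ones whose libraries did not overlap between genotypes, as was the case for 38.9% of tested genes (19.6% higher and 19.3% lower in the mutant). The median log2 fold change of the 10 was 0.05, beside 0.01 for all tested genes. Its sign depended on control library 2, without which it was -0.06, beside -0.004 for all tested genes. With libraries scaled separately within 5 classes of exon length it was -0.01, beside 0.002. Fold changes are Myb mutant over yw67 control throughout.

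Both calls held under some treatments of the libraries and not under others. DESeq2 also called rictor higher and ImpL2 lower, with 34.1% of its tested genes called, 17.3% as higher and 16.8% as lower. Without control library 2, rictor was higher and ImpL2, Akt1 and S6k were lower, with 37.5% of all tested genes called, 18.4% as higher and 19.1% as lower. With libraries scaled separately within 5 classes of exon length, only rictor and ImpL2 of the 10 were called, beside 36.0% of tested genes, 17.7% as higher and 18.3% as lower. With the libraries of each described biological replicate added together, ImpL2 alone was called, beside 14.8% of tested genes, 7.31% as higher and 7.53% as lower, and rictor had a log2 fold change of 0.23 (adjusted p = 0.0513, edgeR).

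**Figure D2:**
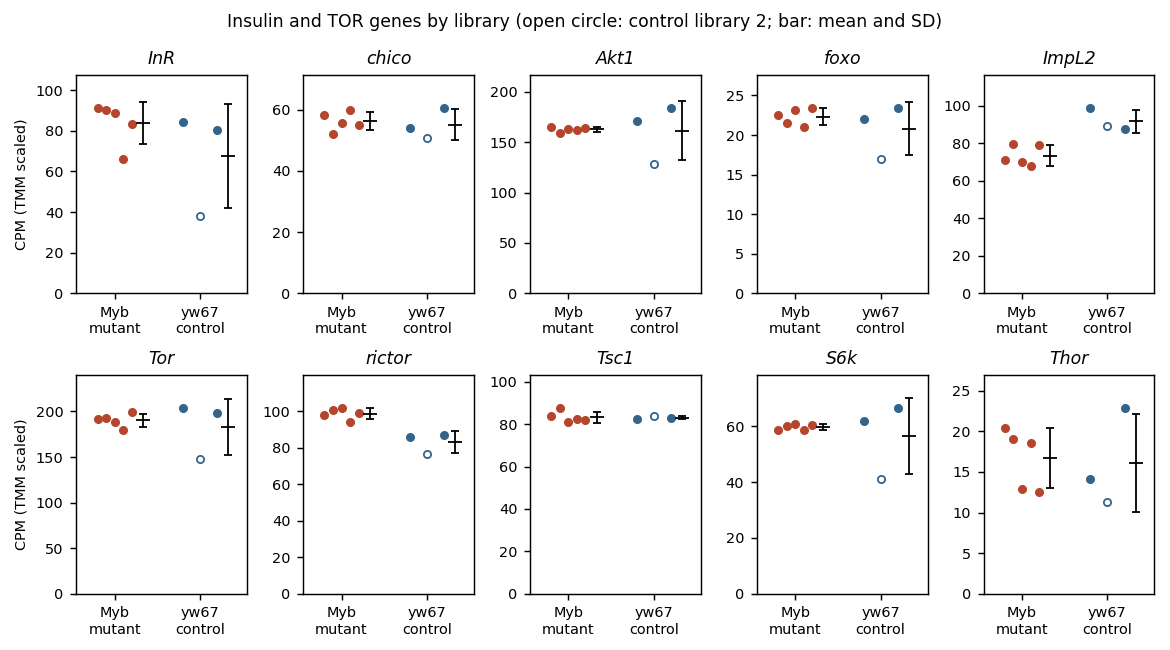
Level in CPM (scaled by the TMM method) of each gene in the 5 Myb mutant libraries (left) and the 3 yw67 control libraries (right), with the mean and SD beside each group and control library 2 as an open circle. The groups separate for ImpL2, with all mutant libraries below 80 CPM and all controls above 87 CPM, and for rictor, with mutant libraries above 94 CPM and controls below 88 CPM.

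InR encodes the insulin receptor, a receptor tyrosine kinase (FBgn0013984, chromosome 3R, 21570248 to 21619321, BDGP6). Its level was 91.3, 90.03, 88.9, 66.2 and 83.1 CPM in Myb mutant libraries 1 to 5, against 84.3, 37.9 and 80.2 CPM in yw67 libraries 1 to 3. The groups overlapped. The lowest value of each genotype came from the library in which long genes were lowest, mutant library 4 and control library 2. The median log2 difference over 8 kb was -0.14 and -0.57 in these libraries, and that of InR was -0.41 and -1.12. A part of exon length in the InR values was not tested. The log2 fold change was 0.31 ± 0.24 (SE; 95% interval -0.23 to 0.86; adjusted p = 0.336, edgeR), and without control library 2 it was 0.02 (adjusted p = 0.895). With the 8 libraries taken as independent, the data thus left room for a change of InR between 0.855-fold and 1.81-fold.

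The adaptor chico, which binds the activated receptor (FBgn0024248, chromosome 2L, 10242512 to 10247078), had 58.1, 52.2, 55.6, 59.8 and 55.0 CPM in mutant libraries, against 53.9, 50.8 and 60.5 CPM in control libraries. The ranges of the genotypes nearly coincided, with a log2 fold change of 0.03 (95% interval -0.12 to 0.17; adjusted p = 0.780, edgeR), and of -0.03 without control library 2.

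Akt1, protein kinase B (FBgn0010379, chromosome 3R, 16099228 to 16105670), had 165, 159, 163, 162 and 165 CPM in mutant libraries, against 172, 128 and 184 CPM in control libraries. The mutant libraries were within a few CPM of each other, and the control values lay on either side of them. The log2 fold change was 0.01 ± 0.10 (95% interval -0.21 to 0.24; adjusted p = 0.936, edgeR). Without control library 2 every mutant library was below both remaining controls, and Akt1 was called lower at a log2 fold change of -0.13 (adjusted p = 0.0160, edgeR). When libraries were instead scaled separately within 5 classes of exon length, the log2 fold change was -0.10 and was not called (adjusted p = 0.141).

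The forkhead transcription factor foxo (FBgn0038197, chromosome 3R, 14056945 to 14087978) had 22.6, 21.6, 23.1, 21.0 and 23.4 CPM in mutant libraries, against 22.0, 17.0 and 23.4 CPM in control libraries. Control library 2 was again the lowest, and the other control values lay within the mutant range. Its log2 fold change was 0.10 (95% interval -0.12 to 0.33; adjusted p = 0.445, edgeR) and without control library 2 it was -0.03.

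ImpL2 encodes a secreted immunoglobulin-like protein that binds insulin-like peptides and dampens signalling, and it was first known as a gene induced by ecdysone in discs (FBgn0001257, chromosome 3L, 4224006 to 4236147). Its level was 70.8, 79.6, 69.7, 67.7 and 78.9 CPM in Myb mutant libraries, against 98.7, 88.9 and 87.3 CPM in yw67 libraries. Every mutant library was below every control library. The means were 73.4 ± 5.51 CPM in mutant and 91.7 ± 6.18 CPM in control discs (SD, n = 5 and 3), a log2 fold change of -0.32 ± 0.07 (SE; 95% interval -0.48 to -0.17; adjusted p = 0.00702, edgeR). It was called lower with any 1 library left out, with log2 fold changes of -0.36 to -0.26, and also with scaling within length classes, at -0.34. ImpL2 shares 1651 exon bases (61.9% of its exons) on the same strand with CG46460, a gene of the newer annotation that has no entry of its own in the table, so the reads of that gene may be counted in it. Beside ImpL2 the hemocyte markers moved the same way, with Hml at 1.82 and 60.7 CPM and Pxn at 4.45 and 83.3 CPM on average in mutant and control discs, and their part in the result was not tested.

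Tor, the kinase that is the catalytic subunit of both TOR complexes (FBgn0021796, chromosome 2L, 13004480 to 13013197), had 192, 193, 189, 179 and 199 CPM in mutant libraries, against 204, 148 and 198 CPM in control libraries. The genotypes overlapped with and without control library 2, and the log2 change was 0.06 (95% interval -0.17 to 0.28; adjusted p = 0.685, edgeR), and without that library it was -0.08 (adjusted p = 0.179).

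Rictor is a subunit of TOR complex 2, the complex that phosphorylates Akt, and is not part of TOR complex 1 (FBgn0031006, chromosome X, 19252111 to 19261240). Its level was 97.9, 100.5, 102, 94.1 and 99.1 CPM in Myb mutant libraries, against 85.7, 76.4 and 87.2 CPM in yw67 libraries. All mutant libraries exceeded all controls. The means were 98.6 ± 2.89 CPM in mutant and 83.1 ± 5.85 CPM in control discs (SD, n = 5 and 3), a log2 fold change of 0.25 ± 0.05 (SE; 95% interval 0.13 to 0.36; adjusted p = 0.00557, edgeR). It was called higher with any 1 library left out, at 0.18 to 0.28, and without control library 2 the value was 0.18. Scaling within exon length classes gave 0.12, still called (adjusted p = 0.0129, edgeR).

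Tsc1, or hamartin, holds its partner gig in the complex that inactivates the TOR activator Rheb (FBgn0026317, chromosome 3R, 24130307 to 24134654). It had 84.0, 87.5, 81.0, 82.6 and 81.8 CPM in mutant libraries, against 82.4, 84.1 and 82.9 CPM in control libraries. The mutant range enclosed the control range, and no library departed from the rest. Tsc1 was the most tightly bounded of the 10, with a 95% interval of 0.950-fold to 1.06-fold around a log2 fold change of 0.00 (adjusted p = 0.935, edgeR), and 0.01 without control library 2.

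S6k, the kinase of ribosomal protein S6 that TOR complex 1 activates (FBgn0015806, chromosome 3L, 5797549 to 5810931), had 58.7, 60.1, 60.7, 58.6 and 60.6 CPM in mutant libraries, against 61.9, 41.1 and 66.5 CPM in control libraries. As for Akt1, the mutant libraries were close together and lay between control library 2 and the other controls. The log2 fold change was 0.08 ± 0.13 (95% interval -0.22 to 0.38; adjusted p = 0.668, edgeR). Without control library 2 it was -0.11 and called lower (adjusted p = 0.0441, edgeR), whereas scaling within length classes gave -0.03 (adjusted p = 0.815).

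Thor, the 4E-BP that binds the cap-binding protein eIF4E until TOR complex 1 phosphorylates it and whose gene foxo is known to activate (FBgn0022073, chromosome 2L, 3478434 to 3479612), had 20.4, 19.1, 12.9, 18.5 and 12.5 CPM in mutant libraries, against 14.1, 11.4 and 22.9 CPM in control libraries. Both genotypes spread over nearly the same range, with mutant libraries 3 and 5 and control libraries 1 and 2 low. The log2 fold change was 0.05 ± 0.25 (95% interval -0.52 to 0.62; adjusted p = 0.897, edgeR), and -0.15 without control library 2 (adjusted p = 0.664). Its coefficient of variation was 22.1% in mutant and 37.3% in control libraries, and its fewest counts in a library, 621, carry a counting error of 4.01%.

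**Figure D3:**
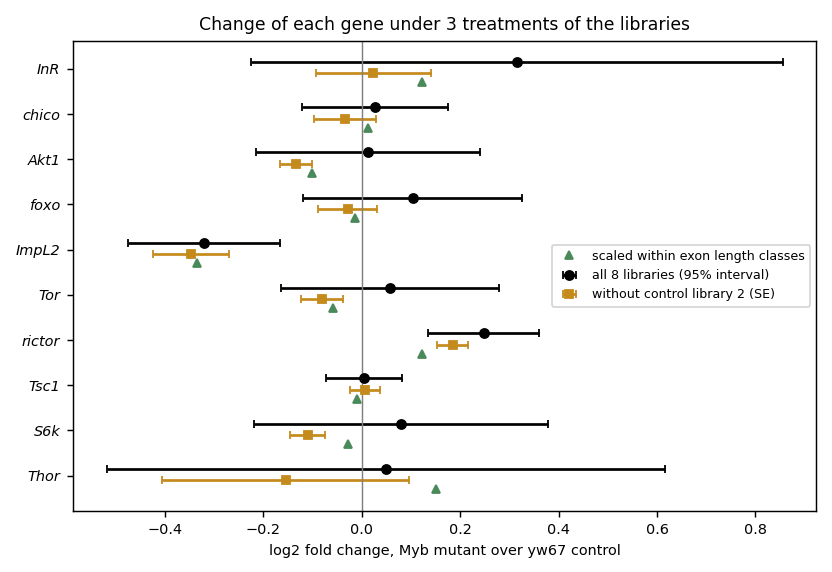
Log2 fold change of each gene, Myb mutant over yw67 control (horizontal axis), from all 8 libraries with its 95% interval (black), without control library 2 with its SE (orange squares) and with libraries scaled within exon length classes (green triangles). ImpL2 stays near -0.32 to -0.35 and rictor stays positive at 0.12 to 0.25, while Akt1, foxo, Tor and S6k lie above 0 in the first and below it in the others.

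Per kilobase of exon, which allows genes to be ranked within a library, Akt1 stood at 33.3 ± 0.459 CPM per kb in Myb mutant discs and 32.998 ± 5.96 in yw67 discs (SD). In mutant discs ImpL2 followed at 27.5 ± 2.06 CPM per kb, then Tor at 23.8 ± 0.908, Thor at 22.1 ± 4.88 and Tsc1 at 21.4 ± 0.662. The spread of Thor covered Tor and Tsc1, which lay further apart than their SDs. In control discs ImpL2 was first by mean, at 34.4 ± 2.32 CPM per kb, within the spread of Akt1. This order rested on control library 2, which was below the other controls by 0.47 on the log2 scale for Akt1 and by 0.07 for ImpL2. The genes chico, rictor and S6k held the middle, at 15.7, 14.6 and 12.2 CPM per kb in mutant and 15.4, 12.3 and 11.6 in control discs, and chico and rictor in the mutant were within their spread of each other. InR and foxo were the lowest in each genotype, with InR at 7.38 ± 0.912 and 5.94 ± 2.26 and foxo at 5.41 ± 0.251 and 5.03 ± 0.816 CPM per kb in mutant and control discs. Exon lengths came from a newer annotation than the one counted, so these levels are approximate.

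Among the 10 genes, the levels of Akt1, Tor, S6k, foxo and InR varied together over the 8 libraries (Pearson's r of 0.83 to 0.97 on the log2 scale), and control library 2 was the lowest library for each of them. ImpL2 ran against rictor at r = -0.70, and the highest r of Tsc1 was 0.37, with Thor. These are descriptions over 8 libraries that share genotype and exon length effects. Of 7012 genes compared, the 3 whose levels were most like ImpL2 were CG13344 (r = 0.99), Gl (0.97), a dynactin subunit, and CG5199 (0.95). Those most like rictor were TepIII (r = 0.99), a thioester-containing protein, CG30055 (0.99) and Fur2 (0.99), a furin protease.

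A single scale factor per library cancels in the ratio of 2 genes within that library, whereas scaling within exon length classes does not where their lengths differ. The ratio of rictor to raptor, the subunits that mark TOR complexes 2 and 1, was 1.07, 1.09, 1.08, 1.08 and 1.08 in mutant libraries, against 0.907, 1.03 and 1.00 in control libraries. It did not overlap between genotypes (log2 difference 0.14, exact two-sided permutation p = 0.0357, the smallest the 56 splits allow, and 0.0893 after adjustment over 5 ratios). With this smallest p, no ratio could pass the adjustment unless at least 4 of the 5 reached it, so a miss says little. In the newer annotation raptor shares 1669 exon bases (23.5% of its exons) on the same strand with Mipp2, a gene counted separately. How reads of the shared part were counted is not known. The ratio of InR to ImpL2, receptor over ligand binder, was 1.29, 1.13, 1.28, 0.978 and 1.05 in mutant libraries, against 0.854, 0.426 and 0.919 in control libraries. These did not overlap either (log2 difference 0.71, exact permutation p = 0.0357, adjusted 0.0893). The exon lengths of this pair differ, at 11.4 kb for InR and 2.67 kb for ImpL2. Without control library 2 the log2 difference was 0.36, where the log2 fold change of InR was 0.02 and that of ImpL2 -0.35.

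For the other pairs the genotypes overlapped. Foxo to Akt1, factor over the kinase that restrains it, averaged 0.137 ± 0.00513 in mutant and 0.129 ± 0.00266 in control libraries (SD, n = 5 and 3; exact permutation p = 0.0714, adjusted 0.119). Tsc1 to gig averaged 0.980 ± 0.0305 in mutant and 1.06 ± 0.130 in control libraries (SD; exact permutation p = 0.321, adjusted 0.402). S6k to Thor, both substrates of TOR complex 1, averaged 3.75 ± 0.943 in mutant and 3.64 ± 0.741 in control libraries (SD; exact permutation p = 1).

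**Figure D4:**
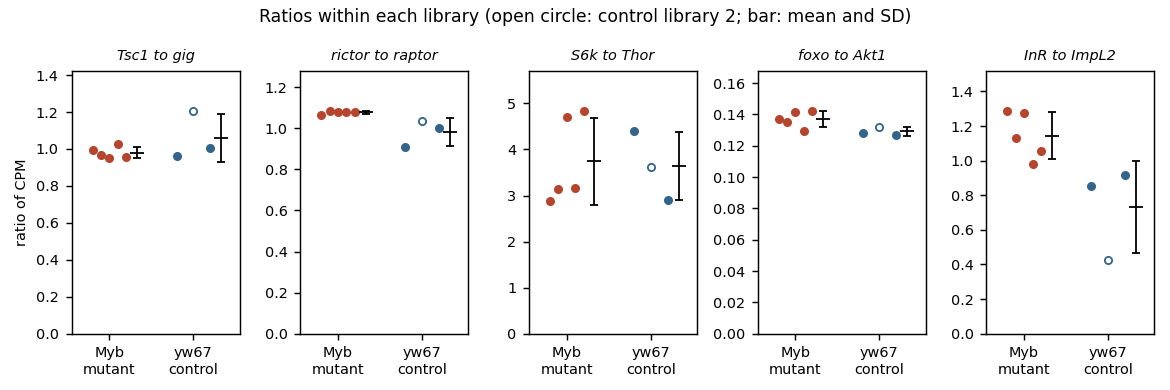
Ratio of the CPM of 2 genes within each library (vertical axis) for 5 pairs, in Myb mutant (left) and yw67 control libraries (right), with the mean and SD and control library 2 as an open circle. Mutant libraries lie above all controls for rictor to raptor and for InR to ImpL2, and the pairs overlap elsewhere.

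The partners of the 10 genes were read from 8 lists of the wider pathway. Of their 73 tested genes 14 were called higher and 6 lower in Myb mutant discs, which is 27.4% against the background of 34.4%. Their median log2 fold change was 0.10, and it was 0.06 without control library 2 and 0.03 with scaling within length classes. In the 4 TOR complex genes, CG3004 (Lst8), a subunit of both complexes, was higher at 97.0, 99.8, 98.3, 100.01 and 99.4 CPM in mutant libraries, against 84.997, 83.3 and 86.5 CPM in control libraries. No libraries overlapped, and the log2 fold change was 0.22 ± 0.03 (SE; adjusted p = 0.000637, edgeR), at 0.19 and not called with libraries summed by described replicate (adjusted p = 0.0722). Sin1, which joins rictor in TOR complex 2, averaged 26.8 ± 0.465 CPM in mutant and 26.8 ± 0.920 CPM in control discs, and raptor had a log2 fold change of 0.11 (adjusted p = 0.284, edgeR) and of 0.01 without control library 2. The TOR complex 2 subunit rictor was thus called higher and Sin1 was not, and the difference between them was not tested.

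**Figure D5:**
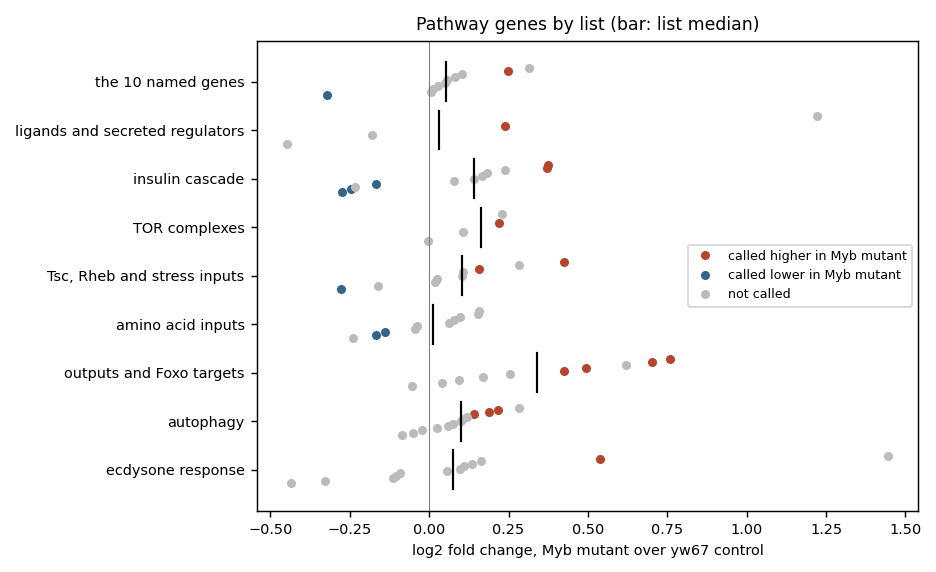
Log2 fold change, Myb mutant over yw67 control (horizontal axis), of every tested gene of the 10 insulin and TOR genes and of 8 lists of the wider pathway (vertical axis), coloured by call, with the median of each list as a bar. The outputs and Foxo targets have the highest median, 0.34, with 4 of 10 genes called higher and 0 lower, beside 16.9% and 17.5% of all tested genes.

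Among ligands and secreted regulators, Ilp1 to Ilp5 and Ilp7 were too low to be tested, and Ilp6 averaged 1.07 CPM in mutant and 1.22 CPM in control discs. CG3837 (Sdr), a secreted decoy of the insulin receptor, was higher at 103 ± 4.00 CPM in mutant and 87.3 ± 5.90 CPM in control discs (log2 fold change 0.24, adjusted p = 0.00754, edgeR). This call was lost with scaling within length classes (0.11, adjusted p = 0.109). Ilp8 (CG14059), a relaxin-like peptide released by damaged or slowly growing discs, had 1.13, 2.27, 1.42, 8.79 and 1.41 CPM in mutant libraries, against 1.67, 1.13 and 1.06 CPM in control libraries. Mutant library 4 was far above the rest, and the change was not called (adjusted p = 0.219, edgeR).

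In the insulin cascade 2 of 11 genes were higher and 3 lower, beside 16.9% higher and 17.5% lower of all tested genes. The higher ones were trbl, a Tribbles pseudokinase that inhibits Akt, with a log2 fold change of 0.37 ± 0.05 (148 ± 5.17 CPM in mutant and 114 ± 5.57 CPM in control discs; adjusted p = 0.000366, edgeR), and melt, a membrane protein that binds Tsc1 and Foxo. Melt averaged 159 ± 8.70 CPM in mutant and 123 ± 7.54 CPM in control discs, and neither gene's libraries overlapped. Its log2 fold change was 0.37, and 0.24 with scaling within length classes, called in each. The lower ones were 14-3-3zeta at -0.25, Pk61C (Pdk1), the kinase that phosphorylates Akt, at -0.27, and 14-3-3epsilon at -0.17, named here after its values were seen. The call of Pk61C was close to the threshold (adjusted p = 0.0485, edgeR). It was lost in 6 of the 8 fits that left out a library (mutant library 1, 2 or 3 or any control), with the adjusted p reaching 0.146. The call held with scaling within length classes (-0.41, adjusted p = 0.0115, edgeR) and in DESeq2 (-0.27, adjusted p = 0.0231). It also held in a fit of libraries 1 to 3 of each genotype with library number as a block (-0.26, adjusted p = 0.0398, edgeR). Without control library 2 Pk61C was at -0.29 (adjusted p = 0.0756, edgeR). The call of 14-3-3epsilon was lost without mutant library 5 (adjusted p = 0.0717, edgeR) and without control library 3 (0.0612).

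The subunits of phosphoinositide 3-kinase did not pass. Pi3K92E, the catalytic subunit of phosphoinositide 3-kinase, had a log2 fold change of 0.17 (adjusted p = 0.0941, edgeR), with every mutant library above every control, and it was called without control library 1 (0.23, adjusted p = 0.0427). It was at 0.07 without control library 2 (adjusted p = 0.0839, edgeR) and at 0.05 with scaling within length classes (0.249). Its regulatory subunit Pi3K21B was at 0.18 (adjusted p = 0.352, edgeR) and at -0.02 without control library 2. Lnk, an adaptor of the receptor, was at 0.08 (adjusted p = 0.110, edgeR), and sgg, the GSK3 kinase that Akt inhibits, was at 0.24 (adjusted p = 0.0861). The value for sgg was 0.32 and called without control library 3 (adjusted p = 0.0458, edgeR), 0.10 without control library 2 (0.107) and -0.00 with scaling within length classes (0.981). DESeq2 called sgg higher at 0.24 (adjusted p = 0.0470), and with libraries summed by described replicate it was at 0.24.

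Around Tsc1, its partner gig had 84.2, 90.5, 85.1, 80.6 and 85.3 CPM in mutant libraries, against 85.6, 69.7 and 82.4 CPM in control libraries, which overlapped (log2 fold change 0.10, adjusted p = 0.263, edgeR, and 0.01 without control library 2). Rheb, the GTPase that activates TOR complex 1, was lower, with 30.2 ± 2.32 CPM in mutant and 36.6 ± 3.20 CPM in control discs (log2 fold change -0.28, adjusted p = 0.0248, edgeR). That call was lost without control library 3 (-0.20, adjusted p = 0.0916) and with scaling within length classes (-0.22, adjusted p = 0.0937). SNF4Agamma, the gamma subunit of AMP-activated kinase, was higher at 0.42 (adjusted p = 0.00364, edgeR) and was not called with scaling within length classes (0.17, adjusted p = 0.265). SNF1A, the catalytic subunit of that kinase and named after its values were seen, was also called higher at 0.16, with overlapping libraries, and kept the call in 1 of the 8 fits that left out a library, that without control library 2.

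The amino acid branch held 0 higher and 2 lower genes of 10, beside 16.9% and 17.5% of all tested genes. CG8783 (Nprl3), a subunit of the GATOR1 complex that restrains TOR complex 1, averaged 24.7 ± 0.871 CPM in mutant and 27.8 ± 0.355 CPM in control discs (log2 fold change -0.17, adjusted p = 0.0173, edgeR), and was not called without control library 3 (adjusted p = 0.0535). CG8707 (RagC-D), a Rag GTPase that brings TOR complex 1 to the lysosome, was at -0.14 (adjusted p = 0.0360, edgeR) and kept its call in 1 of 8 fits that left out a library, that without control library 1, with the adjusted p reaching 0.104. Without control library 2 CG8707 was at -0.10 (adjusted p = 0.0682, edgeR), and with scaling within length classes it was at -0.08 (adjusted p = 0.102, edgeR).

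Of 10 tested genes downstream of TOR and Foxo, 4 were higher and 0 lower in Myb mutant discs, beside 16.9% higher and 17.5% lower of all tested genes, and the median log2 fold change was 0.34 (0.27 without control library 2 and 0.30 with scaling within length classes). CG13624 (REPTOR), a transcription factor that TOR complex 1 holds in the cytoplasm, had 40.6, 46.3, 45.1, 46.1 and 42.8 CPM in mutant libraries, against 30.0, 19.2 and 32.2 CPM in control libraries. All mutant libraries were higher, and the log2 fold change was 0.70 ± 0.15 (SE; adjusted p = 0.00729, edgeR) and 0.50 without control library 2 (adjusted p = 0.000946). Lk6, a kinase of eIF4E and a Foxo target, had 879.6, 1019, 945, 878 and 917 CPM in mutant libraries, against 696, 578 and 704 CPM in control libraries. These did not overlap either, with a log2 fold change of 0.49 ± 0.08 (adjusted p = 0.00219, edgeR).

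Mnt, the antagonist of Myc, was at 0.43 (adjusted p = 0.0275, edgeR), with its lowest mutant and highest control library both at 24.3 CPM, and it lost the call without mutant libraries 1, 2 or 3 or control library 1, with the adjusted p reaching 0.0605. Without control library 2 it was still called, at 0.27 (adjusted p = 0.0473, edgeR). The lipase bmm, a Foxo target named after its values were seen, was called higher at 0.76 (3.06, 2.50, 3.41, 3.19 and 3.22 CPM in mutant libraries, against 2.36, 1.08 and 2.01 CPM in control libraries) and lost the call in 5 of 8 fits that left out a library (mutant library 1, 3, 4 or 5 or control library 3), and without control library 2 it was at 0.49, still called. The growth regulator dm, the fly Myc, was likewise named after its values were seen. It averaged 250.9 CPM in mutant and 163 CPM in control discs without overlap, but was not called (log2 fold change 0.62, adjusted p = 0.0882, edgeR), and control library 2 was at 84.2 CPM. Without that library dm was called higher at 0.30 (adjusted p = 0.00212, edgeR), and with scaling within length classes at 0.44 (0.0350). In the newer annotation dm shares 40.9% of its exon bases with CG12535 on the opposite strand, and whether counting used strand is not given. The translation factor eIF-4E, to which Thor binds, had a log2 fold change of -0.05 (95% interval -0.16 to 0.05).

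Of 13 autophagy genes, a process that TOR complex 1 inhibits, 3 were higher and 0 lower, beside 16.9% and 17.5% of all tested genes. Without control library 2, 4 were higher and 0 lower, beside 18.4% and 19.1%, and these included genes not named here. With scaling within length classes 2 were higher and 1 lower, beside 17.7% and 18.3%. Atg8a, the ubiquitin-like protein of autophagosomes, averaged 162 ± 5.37 CPM in mutant and 142 ± 9.47 CPM in control discs (log2 fold change 0.19, adjusted p = 0.0208, edgeR). Its call was lost without mutant library 2 (adjusted p = 0.0514, edgeR), mutant library 4 (0.0502) or control library 1 (0.0659). CG7053 (Atg101) at 0.22 and Atg18 at 0.14, the second named after its values were seen, each lost their call in 6 of 8 such fits, Atg101 without mutant library 1, 2, 3 or 4 or control library 1 or 2 (0.13 without control library 2), and Atg18 without mutant library 1, 2, 3 or 5 or control library 2 or 3. Atg18 was at 0.10 without control library 2 (adjusted p = 0.109, edgeR). Of 12 ecdysone response genes, examined because ImpL2 responds to that hormone, 1 was higher and 0 lower, beside 16.9% and 17.5% of all tested genes. The higher one was EcR, the ecdysone receptor, at 0.54 (203 ± 14.7 CPM in mutant and 140.1 ± 32.4 CPM in control discs, adjusted p = 0.0179, edgeR). Without control library 2, 2 of the 12 were called higher, EcR among them, beside 18.4% of all tested genes. EcR was at 102.7 CPM in control library 2, and its log2 fold change was 0.35 without that library and 0.32 with scaling within length classes, called in each (adjusted p = 0.00577 and 0.00868, edgeR).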

How the data were processed

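The authors isolated total RNA, made cDNA from polyadenylated RNA, trimmed reads with Trimmomatic (version 0.22 per the labels; the methods name another), mapped them to exons of a FlyBase release 5 gene set with Bowtie2 version 2.1.0 and summed unique counts per gene. The values deposited by the authors were raw read counts. Whether counting used strand is not given in the sources used here. The authors' log2 fold change, p-value and adjusted p-value from their DESeq2 fit of these counts stood in the same deposited table and were not used. A row of pooled mitochondrial reads (0.574% to 1.34% of counts) was left out.

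For the fit, edgeR (version 4.0.16; R 4.3.3) was run on the counts (filterByExpr on genotype, TMM scaling, quasi-likelihood test with genotype as the only term, Benjamini-Hochberg over 9076 genes, called at adjusted p under 0.05). The SE was derived from the size of the log2 fold change and its F statistic. CPM are TMM-scaled counts, and the coefficient of variation from counting is that of a Poisson count and covers counting error only. Levels per kb used the summed exon length in BDGP6 (Ensembl release 115), in which 12120 identifiers matched and 511 more matched by symbol. Its positions are not those of the build counted. Of 127 listed gene names 125 were found in the table. Symbols are the table's, with newer names in parentheses.

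Ratios were tested by exact permutation over all 56 ways to divide the libraries into 5 and 3. The genes named are the 10, their direct partners, and from each pathway list up to 4 called genes with the largest change at 5 CPM or more without overlap, and for rictor and ImpL2 also the 3 genes of highest Pearson's r. The 10 genes and the lists were chosen with earlier results of these data known. Alternatives were DESeq2 version 1.42.0, other scalings and filters, each library left out, libraries summed by described replicate and a replicate block. The scaling within exon length classes was chosen after seeing the data. Scripts were tested on simulated data. Promoter and protein sequences were not used here, and 1 of the partner genes is not reported here.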

Additional observations from a re-analysis of the deposited data

Results flagged for a closer look

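In 41 groups of 4 or more libraries examined for a library far from the others, 2 stood out, and chance flags about 1 in 20 groups. Ilp8 (CG14059) was at 8.79 CPM in Myb mutant library 4, where the other mutant libraries were at 1.13 to 2.27 CPM, and without that library its log2 fold change was 0.27. Atg8a was at 172 CPM in the same library, where the others were at 159 to 161 CPM.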

How the results depend on the processing

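The lowest count of the 10 genes in a library was 621. With each library left out in turn, 1183 to 1702 genes were called higher and 1191 to 1758 lower, and of the 10 genes 1 was called higher and 1 to 3 lower, the 3 without control library 2, where Akt1 (range -0.13 to 0.12 over these fits) and S6k (-0.11 to 0.21) changed sign and were called. The wider pathway lists then held 9 to 17 higher and 1 to 5 lower calls, with 9 without mutant library 2 or 3 and 1 without control library 3. The log2 differences of the ratios ranged from -0.17 to -0.01 for Tsc1 to gig, 0.08 to 0.18 for rictor to raptor, -0.13 to 0.17 for S6k to Thor, 0.07 to 0.11 for foxo to Akt1 and 0.36 to 0.92 for InR to ImpL2. With libraries summed by described biological replicate, which leaves a lone control sample assumed to vary like the mutant ones, edgeR called 744 genes higher and 766 lower, 0 of the 10 genes higher (rictor 0.23, adjusted p = 0.0513) and ImpL2 lower (adjusted p = 0.0396), with 2 lower calls in the pathway lists. Of the pathway genes named, CG3004, CG3837, Rheb, CG8783, CG8707, CG7053, Atg8a, bmm, SNF1A, Atg18 and 14-3-3epsilon lost their call in these sums (adjusted p of 0.0647 to 0.180, edgeR).

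The genotypes share library numbers 1 to 3. Same-numbered libraries deviated from their group means with r of 0.31, -0.05 and -0.08, so the numbers were not taken to pair the libraries, and not every library correlated best with its own number. A replicate block over libraries 1 to 3 gave 744 higher and 651 lower genes, 0 higher and 0 lower of the 10 (rictor 0.27, adjusted p = 0.0502; ImpL2 -0.32, adjusted p = 0.0547; edgeR), and 3 higher and 1 lower in the pathway lists. The same 6 libraries without the block, a fit added after seeing the data, gave 1027 higher and 1031 lower genes and 8 higher and 1 lower in the lists. In that fit rictor was called higher (0.27, adjusted p = 0.0235, edgeR) and ImpL2 lower (-0.32, adjusted p = 0.0260, edgeR). DESeq2, the other scalings and filters and the scaling within length classes left the direction and call of rictor and ImpL2 in place.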
